A study of Mus musculus with 6 samples.

Results

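A set of 36 skeletal muscle genes was followed through 6 RNA sequencing libraries of E14.5 mouse embryos. The genes were taken from the deposited count table by symbol and stand on 64 of its 28644 transcript rows. They make up 36 of its 22869 gene symbols, and 1 row was used per gene, the one with the highest summed count. They were picked because they were high in tissue captured at the spinal cord midline, so their difference between the cell groups is described here without a test. Replicates 2, 3 and 5 of the midline, 3 libraries in all, were made from wild-type embryos of mixed strain. Spinal cords were frozen, sectioned and stained with hematoxylin, and the labels call the laser captured material roof plate-derived dorsal column midline cells. Replicates 2, 8 and 9 of the mechanoreceptors, also 3 libraries, were made from the dorsal root ganglia of mixed-strain embryos carrying Ret-CreERT2 and Rosa26-Tdtomato, sorted by flow cytometry. Their mothers received 1.5 or 2 mg of 4-hydroxytamoxifen by oral gavage, and the dose behind each library is not stated. In these embryos Cre follows the Ret promoter and acts only after tamoxifen, so the reporter marks the cells that expressed Ret at that time. Neither group was selected for muscle, and the labels do not say which libraries came from separate embryos or litters. A p-value here therefore measures the spread between these libraries, which may be partly technical.

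Skeletal muscle contracts through sarcomeres, in which myosin heavy and light chains pull on actin filaments. Troponin and tropomyosin switch the actin filament on when calcium is released. Nebulin spans that filament, and titin reaches from Z-disc to M-band. In the fetus, myoblasts directed by Myod1, Myf5, Myf6 and Myog fuse into fibres that carry the embryonic heavy chain Myh3 and the perinatal heavy chain Myh8. The adult heavy chains follow later. The fetal acetylcholine receptor holds the gamma subunit Chrng, which the epsilon subunit Chrne replaces after birth. The roof plate and the spinal cord midline are neural tissue without skeletal muscle fibres.

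Promoter sequence, credited to RefSeq on the build GRCm38.p6, was matched to 30 of the 36 genes in 33 windows that hold the 250 bases before each start. Tnnt3, Tnni2, Neb, Myod1, Myf6 and Chrnd were not matched. The counts were made on mm9, so the positions given here belong to the sequences alone. 4 windows are shown for a fusion-stage regulator, the striated actin with the higher level per coding kilobase, the embryonic heavy chain and the fetal receptor subunit. Capitals mark the E-box CANNTG, which the myogenic regulators bind, in Myog, Myh3 and Chrng, the motif TATAAA in Myh3, and the CArG box, which serum response factor binds, in Actc1. Both strands were searched. Myog lies at chr1:134289754-134290003 on the plus strand, Actc1 at chr2:114052876-114053125 on the minus strand, Myh3 at chr11:67078050-67078299 on the plus strand and Chrng at chr1:87205561-87205810 on the plus strand.
Myog: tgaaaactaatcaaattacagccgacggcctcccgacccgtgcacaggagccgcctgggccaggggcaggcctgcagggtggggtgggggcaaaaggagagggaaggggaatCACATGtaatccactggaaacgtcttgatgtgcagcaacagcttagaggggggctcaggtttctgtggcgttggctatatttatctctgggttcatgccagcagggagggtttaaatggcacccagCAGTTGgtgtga
Actc1: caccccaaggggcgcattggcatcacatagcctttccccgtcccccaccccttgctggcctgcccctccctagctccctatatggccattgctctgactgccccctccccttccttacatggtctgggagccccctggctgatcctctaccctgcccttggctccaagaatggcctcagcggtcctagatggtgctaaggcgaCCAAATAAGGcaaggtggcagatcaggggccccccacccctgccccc
Myh3: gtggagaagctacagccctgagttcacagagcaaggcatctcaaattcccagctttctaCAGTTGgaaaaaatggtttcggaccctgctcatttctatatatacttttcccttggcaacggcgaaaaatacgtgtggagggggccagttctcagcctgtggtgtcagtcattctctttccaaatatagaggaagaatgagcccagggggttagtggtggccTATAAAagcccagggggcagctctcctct
Chrng: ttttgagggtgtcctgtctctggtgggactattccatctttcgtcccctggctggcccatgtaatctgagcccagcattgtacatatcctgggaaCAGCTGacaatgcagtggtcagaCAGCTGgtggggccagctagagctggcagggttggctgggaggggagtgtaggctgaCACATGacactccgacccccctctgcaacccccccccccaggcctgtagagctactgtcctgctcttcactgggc
Chrng held 3 E-boxes, Myog held 2, and Myh3 held 1. At least 1 E-box stood in 27 of the 33 windows, against 66.2% of 32851 windows of all genes. The CArG box stood in 2 of the 33, those of Actc1 and Acta1, against 1.47% of all windows. A MEF2 motif, searched by its consensus, stood in 4 of the 33, against 2.92% of all windows, and TATAAA in 7 of the 33, against 12.4%. A match of letters describes the window and does not show that a factor bound there.

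The midline libraries held 5599811 to 8081153 counts over all transcript rows, and the mechanoreceptor libraries held 12031898 to 13801474. Midline library 2 stood apart from the other 2 midline libraries in its muscle counts, and midline values are therefore given with and without it. The summed level of 10 roof plate genes was 375.5, 1096 and 1681 CPM (counts scaled to a common library size) in midline libraries 2, 3 and 5, against 3.31 to 9.08 CPM in the mechanoreceptor libraries. The summed level of 8 sensory neuron genes was 126 to 180 CPM in midline libraries and 5062 to 6399 CPM in mechanoreceptor libraries. Both lists thus ran with the labels, and midline library 2 had the lowest roof plate level of its group. CPM here uses edgeR's normalized library sizes.

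The 36 muscle genes took 5.32% of the counts in midline library 2, with a 95% Wilson interval of 5.30 to 5.34%, 0.0786% in midline library 3 and 0.536% in midline library 5. They took 0.0520%, 0.0520% and 0.0548% in mechanoreceptor libraries 2, 8 and 9. The midline mean was 1.98% ± 2.90 (SD, n = 3), and 0.307% without midline library 2. These intervals cover counting error only. Tpm1, the alpha tropomyosin gene, which neurons also express, made up 1.69%, 20.3% and 3.84% of the summed CPM of the 36 genes in midline libraries 2, 3 and 5, against 89.6%, 84.4% and 84.9% in mechanoreceptor libraries 2, 8 and 9. Leaving Tpm1 out, the other 35 genes summed to 47140, 551.6 and 4575 CPM in midline libraries 2, 3 and 5, against 61.5, 92.0 and 91.1 CPM in mechanoreceptor libraries 2, 8 and 9. Midline library 3 was the lowest of its group and still lay above each mechanoreceptor library. In bulk libraries, fewer muscle cells and less muscle RNA per cell cannot be told apart.

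**Figure D1:**
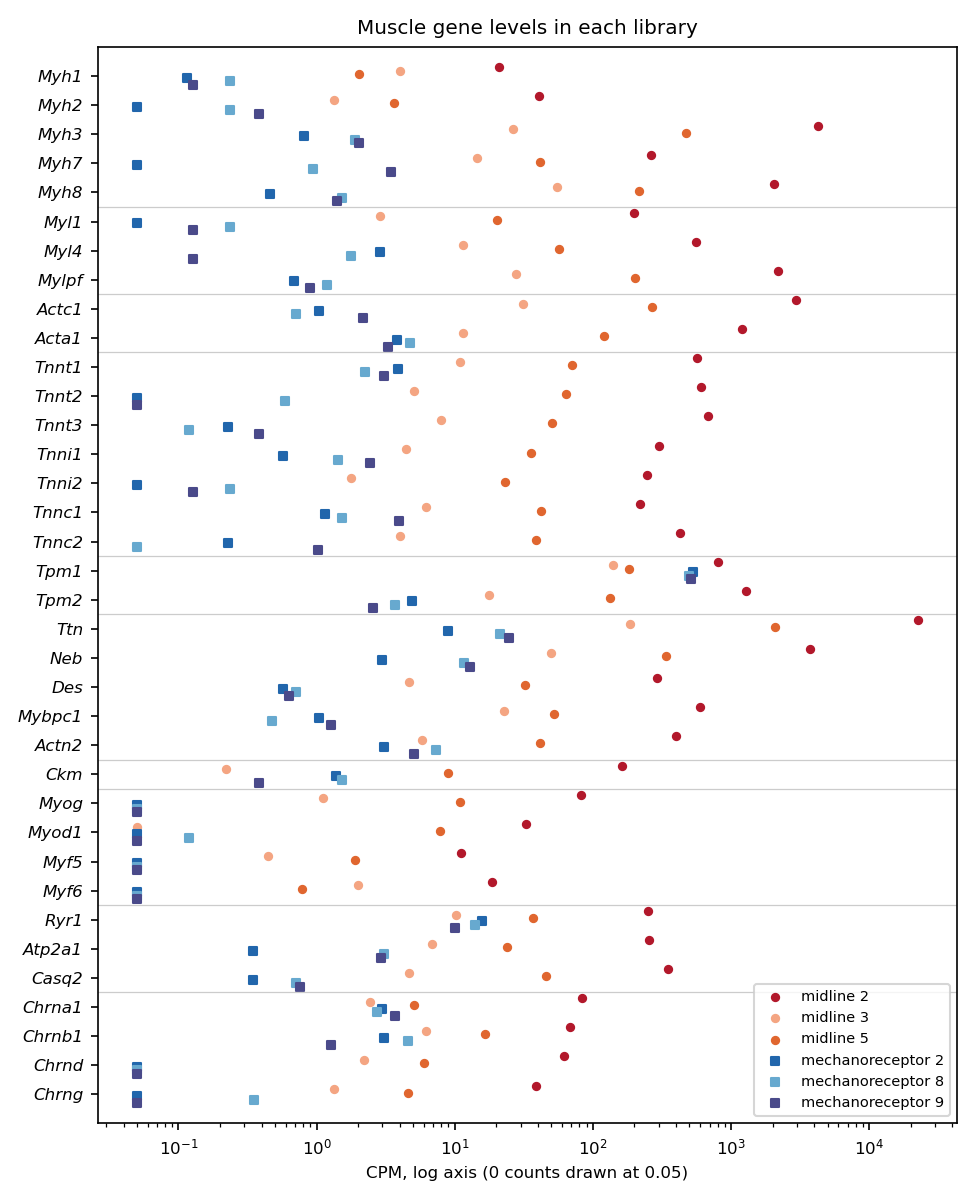
CPM on a log axis (0 counts drawn at 0.05) for the 36 muscle genes, grouped by role, with circles for the 3 midline libraries and squares for the 3 mechanoreceptor libraries. Midline library 2 is the rightmost point of every gene, and the Tpm1 points of the groups overlap.

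In 30 of the 36 genes every midline library lay above every mechanoreceptor library. Among genes that passed the count filter this held for 27 of 31 members and for 27.5% of all 15314. The groups overlapped in Tpm1, Actn2, Ckm, Myod1, Ryr1 and Chrna1. The filter passed 31 of the 36, and left out Ckm, Myog, Myod1, Myf5 and Myf6. Of the 31, 29 were called higher in the midline at an adjusted p under 0.05, where 18.9% of all genes tested were, and Tpm1 and Chrna1 were not called. Since the genes were picked on this contrast, nothing is read from these counts. Their median log2 fold change, midline minus mechanoreceptor, was 6.99, and 4.39 without midline library 2, against 0.05 and 0.04 over all genes tested. In the authors' deposited table, 35 of the 36 were marked higher in the midline, Tpm1 being the exception, as were 12.8% of the 22869 gene symbols.

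Per coding kilobase, Myh3 and Myh8, the 2 developmental myosin heavy chains, led their family in every midline library. Myh3 was at 4286, 26.4 and 475.7 CPM in midline libraries 2, 3 and 5, against 0.804, 1.89 and 2.04 CPM in mechanoreceptor libraries 2, 8 and 9. Myh8 was at 2063, 54.9 and 217.2 CPM in the midline libraries, against 0.460, 1.54 and 1.40 CPM in the mechanoreceptor libraries. For both genes the groups were far apart, and the summed-count ratio of midline over mechanoreceptor was 1123 for Myh3 and 758.7 for Myh8. Without midline library 2 these ratios were 185.7 and 133.9. Myh7, the slow and cardiac heavy chain, was at 262.2, 14.4 and 41.4 CPM in the midline, against 0, 0.947 and 3.44 CPM in mechanoreceptors. Among the heavy chains of the set, the adult fast ones had the fewest counts. Myh2, of fast oxidative fibres, was at 41.1, 1.33 and 3.62 CPM in the midline, against 0, 0.237 and 0.382 CPM in mechanoreceptors. Myh1, of another fast fibre type, was at 20.9, 4.00 and 2.04 CPM in the midline, against 0.115, 0.237 and 0.127 CPM in mechanoreceptors. Of the heavy chains of the set, only Myh1 was lower in midline library 5 than in midline library 3, which rests on 13 and 18 counts.

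Per coding kilobase, Myh3 made up 64.2% of the 5 heavy chains in midline library 2, 26.1% in midline library 3 and 64.3% in midline library 5. Its mean was 51.5% ± 22.0 (SD, n = 3). Myh8 made up 30.9%, 54.3% and 29.4%, and Myh7 made up 3.94%, 14.3% and 5.60% in the same order of libraries. Libraries 2 and 5 thus had nearly the same composition although the summed level of these genes differed 9.02-fold, and midline library 3 had Myh8 as its main chain. The Myh8 to Myh3 ratio, per coding kilobase, was 0.482 (95% exact interval 0.472 to 0.492) in midline library 2, 2.08 (1.66 to 2.61) in midline library 3 and 0.457 (0.429 to 0.487) in midline library 5. The midline library 3 value rests on 247 Myh8 and 119 Myh3 counts, and its interval lies above the others, each from 1 library without a replicate. Some reads can be split between these paralogs. Of all 50-base windows in the transcript, 27.4% of Myh1, 26.9% of Myh2, 22.6% of Myh7, 21.4% of Myh8 and 4.81% of Myh3 also occurred in another gene. The values of Myh8 and of the adult chains are therefore less certain than those of Myh3.

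**Figure D2:**
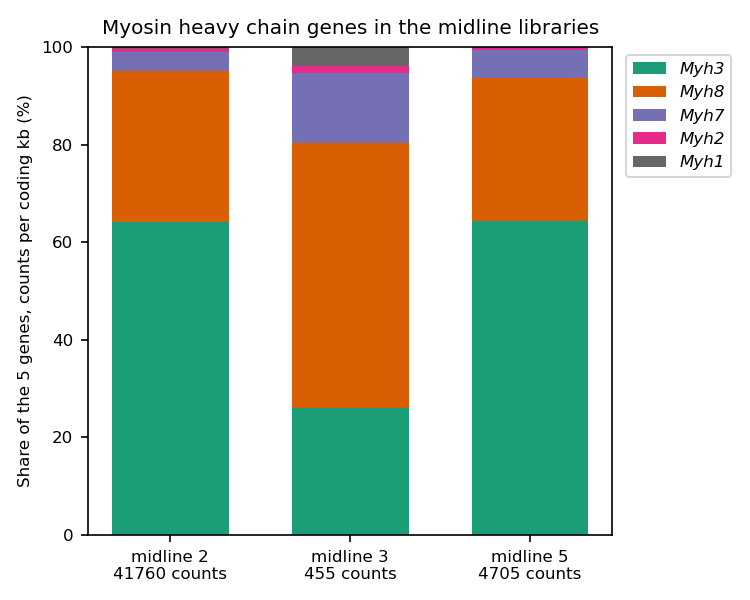
Share of each myosin heavy chain gene in the counts per coding kilobase of the 5 genes (%), 1 bar per midline library, with the heavy chain counts under each bar. Myh3 is the largest part in libraries 2 and 5 at 64.2% and 64.3%, and Myh8 is the largest in library 3 at 54.3%.

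Among the light chains, Mylpf, the fast regulatory light chain, was at 2192, 27.8 and 200.8 CPM in midline libraries 2, 3 and 5, against 0.689, 1.18 and 0.890 CPM in mechanoreceptors. It had the highest level per coding kilobase of the 36 genes in midline libraries 2 and 5, at 4300 and 394 CPM per kilobase. Myl4, the embryonic and atrial essential light chain, was at 553.7, 11.6 and 57.2 CPM in the midline, against 2.87, 1.77 and 0.127 CPM in mechanoreceptors. Myl1, the fast essential light chain, was at 198.9, 2.89 and 20.1 CPM in the midline, against 0, 0.237 and 0.127 CPM in mechanoreceptors, with the groups apart in all of the light chains. Per coding kilobase Myl4 exceeded Myl1 by 2.71, 3.90 and 2.77 times in midline libraries 2, 3 and 5, and the 3 intervals overlapped. Of the sarcomeric actins, Actc1, the cardiac form that fetal skeletal muscle also makes, was at 2973, 31.3 and 266.2 CPM in the midline, against 1.03, 0.710 and 2.16 CPM in mechanoreceptors. Acta1, the adult skeletal form, was at 1205, 11.6 and 121.1 CPM in the midline, against 3.79, 4.73 and 3.31 CPM in mechanoreceptors. Per coding kilobase Actc1 exceeded Acta1 by 2.47 (2.40 to 2.53), 2.71 (1.96 to 3.80) and 2.20 (2.02 to 2.40) times in midline libraries 2, 3 and 5. The cardiac form was thus ahead in each midline library. The Actc1 transcript shared no 50-base window with another gene, and Acta1 shared 2% of them with Actb.

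The troponins came in fast, slow and cardiac-embryonic forms, and all 7 had higher midline than mechanoreceptor values in every library. Tnnt3, fast troponin T, was at 682.9, 8 and 50.9 CPM in midline libraries 2, 3 and 5, against 0.230, 0.118 and 0.382 CPM in mechanoreceptors. Tnnt1, slow troponin T, was at 569.6, 10.9 and 70.9 CPM in the midline, against 3.91, 2.25 and 3.05 CPM in mechanoreceptors. Tnnt2, the cardiac and embryonic form, was at 610.9, 5.11 and 63.7 CPM in the midline, against 0, 0.592 and 0 CPM in mechanoreceptors. Each form lay above the mechanoreceptor range in every midline library. Per coding kilobase Tnnt3 over Tnnt1 was 1.15 (1.10 to 1.20) in midline library 2, 0.705 (0.445 to 1.11) in midline library 3 and 0.689 (0.596 to 0.797) in midline library 5. The inhibitory subunits followed, with Tnni1, the slow form, at 302.2, 4.44 and 35.5 CPM in the midline and 0.574, 1.42 and 2.42 CPM in mechanoreceptors, and Tnni2, the fast form, at 245.4, 1.78 and 22.96 CPM in the midline and 0, 0.237 and 0.127 CPM in mechanoreceptors. Tnni2 over Tnni1, per coding kilobase, was 0.834 (0.78 to 0.893) in midline library 2. It was 0.411 (0.157 to 0.974) in midline library 3 and 0.664 (0.535 to 0.821) in midline library 5. For this pair the slow form led in each midline library. The calcium-binding subunits were Tnnc2, the fast form, at 430.6, 4.00 and 38.7 CPM in the midline and 0.230, 0 and 1.02 CPM in mechanoreceptors, and Tnnc1, the slow and cardiac form, at 221.1, 6.22 and 42.1 CPM in the midline and 1.15, 1.54 and 3.94 CPM in mechanoreceptors. Tnnc2 over Tnnc1, per coding kilobase, was 1.96 (1.84 to 2.09) in midline library 2, 0.647 (0.337 to 1.21) in midline library 3 and 0.924 (0.774 to 1.10) in midline library 5, so the fast form led in library 2 and the intervals of the other 2 libraries held an equal level.

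The tropomyosins differed. Tpm2, beta tropomyosin, was at 1279, 17.8 and 134.1 CPM in midline libraries 2, 3 and 5, against 4.94, 3.67 and 2.54 CPM in mechanoreceptors. Tpm1 was at 810.6, 140.9 and 182.7 CPM in the midline, against 528.7, 496.4 and 512.9 CPM in mechanoreceptors. Only midline library 2 lay above the mechanoreceptor libraries for Tpm1, and the other 2 midline libraries lay below each of them. The table carries several transcript rows for Tpm1, and their balance also differed. The row NM_001164248 held 103, 44.3 and 70.4% of the counts of the row used in midline libraries 2, 3 and 5, against 35.1, 33.9 and 32.0% in mechanoreceptor libraries 2, 8 and 9. That row was relatively fuller in each midline library, and most so in library 2. Rows of 1 gene share reads, so these are not isoform levels.

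Titin took the largest count of any member. Ttn, the molecular spring that reaches from Z-disc to M-band, was at 22580, 186 and 2080 CPM in midline libraries 2, 3 and 5, against 8.96, 21.3 and 24.6 CPM in mechanoreceptors. It held 47.1%, 26.9% and 43.7% of the muscle counts of the midline libraries, on a very long transcript. Per coding kilobase its level was 225, 1.85 and 20.7 CPM, far below that of Mylpf. Neb, nebulin, which spans the thin filament, was at 3715, 50 and 336.5 CPM in the midline, against 2.99, 11.6 and 13.0 CPM in mechanoreceptors. Ttn over Neb, per coding kilobase, was 1.30, 0.795 and 1.32 in midline libraries 2, 3 and 5. The lower value again belonged to library 3. Of the other scaffold genes, Des, the muscle intermediate filament desmin, was at 292.2, 4.67 and 32.1 CPM in the midline and 0.574 to 0.710 CPM in mechanoreceptors. Mybpc1, slow myosin binding protein C, was at 592.3, 22.9 and 52.0 CPM in the midline and 0.473 to 1.27 CPM in mechanoreceptors. Actn2, alpha-actinin of the Z-disc, was at 400.4, 5.78 and 41.5 CPM in the midline, against 3.10, 7.34 and 5.09 CPM in mechanoreceptors. Its midline library 3 value fell within the mechanoreceptor range. Ckm, muscle creatine kinase, a late marker, was at 162.7, 0.222 and 8.96 CPM in the midline, against 1.38, 1.54 and 0.382 CPM in mechanoreceptors, so that midline library 3, with a single count, lay below each mechanoreceptor library.

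The myogenic regulators, transcription factors that define the muscle lineage, were near 0 in the mechanoreceptor libraries. Myog, which drives differentiation, was at 82.6, 1.11 and 10.9 CPM in midline libraries 2, 3 and 5 and had 0 counts in each mechanoreceptor library. Against a floor of 3 counts over the mechanoreceptor group, this was at least 287.9-fold higher, and at least 56.8-fold without midline library 2. Myod1, the determination factor, was at 32.6, 0 and 7.86 CPM in the midline, against 0, 0.118 and 0 CPM in mechanoreceptors. Midline library 3 therefore had no Myod1 count, which allows up to 0.667 CPM by a floor of 3 counts. The single mechanoreceptor count left a ratio of 371 with an interval of 66.0 to 14720, and 115.2 without midline library 2. Myf5, an early regulator, was at 11.0, 0.444 and 1.89 CPM in the midline with 0 counts in mechanoreceptors, at least 40.4-fold higher, and at least 10.8-fold without midline library 2. Myf6, a late regulator, was at 18.7, 2.00 and 0.786 CPM in the midline with 0 counts in mechanoreceptors, at least 63.8-fold higher, and at least 10.8-fold without midline library 2. Myf6 was lower in midline library 5 than in library 3, on 5 and 9 counts. In library 3 the 4 regulators together had 3.56 CPM.

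Calcium handling genes were present too. Ryr1, the calcium release channel, was at 250.1, 10.2 and 37.1 CPM in midline libraries 2, 3 and 5, against 15.9, 14.1 and 10.1 CPM in mechanoreceptors. Only libraries 2 and 5 were above the mechanoreceptor range, and neurons express Ryr1 at some level. Atp2a1, the fast-fibre calcium pump, was at 256.8, 6.89 and 23.9 CPM in the midline, against 0.345, 3.08 and 2.93 CPM in mechanoreceptors. Casq2, the cardiac and slow-fibre calsequestrin that stores calcium, was at 348, 4.67 and 45.5 CPM in the midline, against 0.345, 0.710 and 0.763 CPM in mechanoreceptors. Both lay above the mechanoreceptor range in every midline library.

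The receptor of the neuromuscular junction has alpha, beta and delta subunits at every age, and a gamma subunit in the fetus. Chrna1, the alpha subunit, was at 83.9, 2.44 and 5.03 CPM in midline libraries 2, 3 and 5, against 2.99, 2.72 and 3.69 CPM in mechanoreceptors. Its midline library 3 value lay below each mechanoreceptor library. Chrnb1, the beta subunit, was at 68.1, 6.22 and 16.5 CPM in the midline and 3.10, 4.62 and 1.27 CPM in mechanoreceptors. Chrnd, the delta subunit, was at 61.4, 2.22 and 5.98 CPM in the midline with 0 counts in each mechanoreceptor library, at least 210.4-fold higher, and at least 36.9-fold without midline library 2. Chrng, the fetal gamma subunit, was at 38.5, 1.33 and 4.56 CPM in the midline, against 0, 0.355 and 0 CPM in mechanoreceptors. Chrne, which replaces it after birth and was looked up after the other values were seen, had 1.60, 0.889 and 0.629 CPM in the midline, on 10, 4 and 4 counts, against 0.230, 0.473 and 0.127 CPM in mechanoreceptors. Chrng counts were 241, 6 and 29 in the midline libraries, and 0, 3 and 0 in the mechanoreceptor libraries. Levels of these 2 genes were not set against each other per length.

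The midline libraries kept one order. Library 2 was highest, then library 5, then library 3 in 34 of the 36 genes, where 22.4% of all 15314 genes tested showed that order. The exceptions were Myh1 and Myf6. The CPM ratio of library 2 over library 5 had a median of 9.66 over the 36 genes, with quartiles of 7.94 and 10.9. For library 2 over library 3 the median was 62.6 over the 35 genes with a count in library 3, and for library 5 over library 3 it was 6.73. Across the 36 genes, log2(CPM + 0.5) of libraries 2 and 5 had a Pearson r of 0.98, a description over genes of 2 libraries, and library 3 had 0.84 with library 2 and 0.86 with library 5. Genes are not independent replicates, and library 3 held few counts of many of them, with at least 20 counts in 23 of the 36.

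Counting error alone did not cover the spread of that ratio over the genes. The exact 95% counting interval of the library 2 over library 5 ratio held the median for 17 genes, lay above it for 10 and below it for 9. These intervals leave out any other variation between libraries, so whether the genes truly differ in this ratio was not tested. The lowest ratio belonged to Chrnb1 at 4.12 (3.32 to 5.15) and the highest to Myf6 at 23.8 (9.90 to 74.6). Ckm at 18.1 (13.9 to 24.1) and Chrna1 at 16.7 (11.7 to 24.6) were also high, and Myod1 at 4.15 (3.03 to 5.77) and Tpm1 at 4.44 (4.16 to 4.73) were low. Members known from 1 fibre type were sorted after these ratios were seen. The 6 slow-fibre genes Myh7, Tnnt1, Tnni1, Tnnc1, Mybpc1 and Casq2 had ratios of 5.25 to 11.4, and the 8 fast-fibre genes Myh1, Myh2, Myl1, Mylpf, Tnnt3, Tnni2, Tnnc2 and Atp2a1 had ratios of 9.88 to 13.4. The medians were 7.84 for the slow-fibre and 10.8 for the fast-fibre genes. The ranges overlapped through Mybpc1 at 11.4, and the other slow-fibre genes lay below the lowest fast-fibre gene. Casq1, a fast-fibre gene outside the set, was at 7.13, within the slow-fibre range. Whether fibre type goes with the ratio was not tested in this single pair of libraries.

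**Figure D3:**
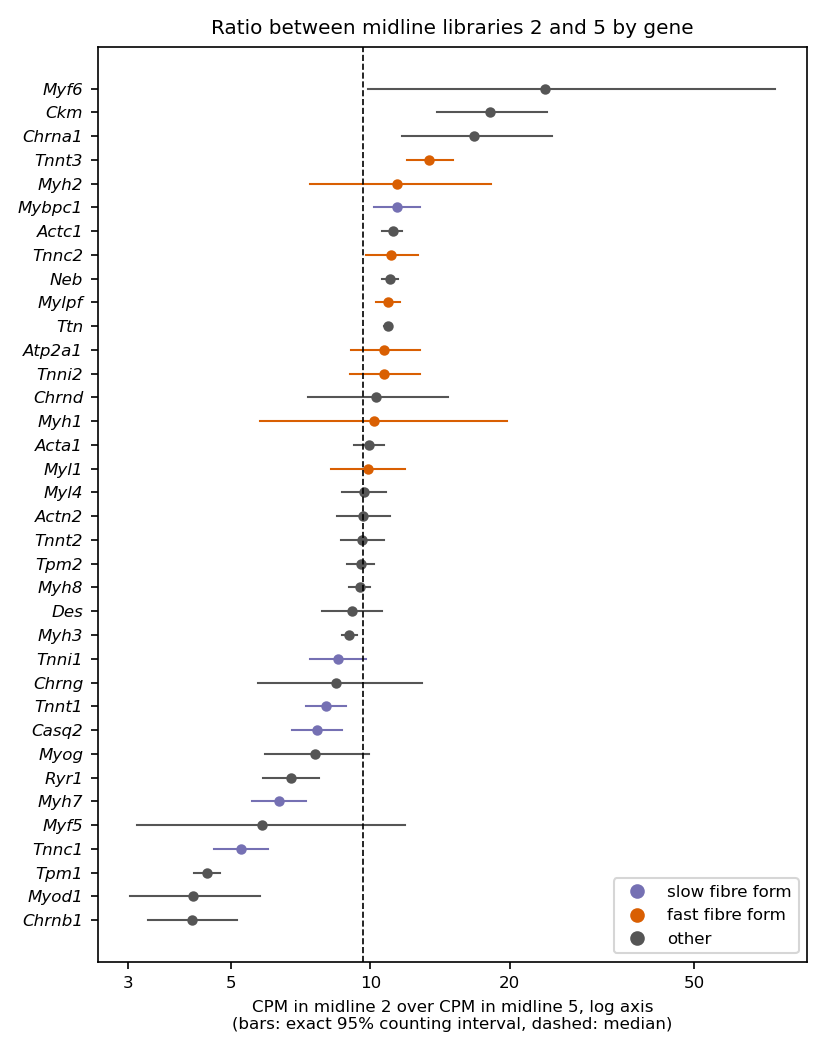
Ratio of CPM in midline library 2 over midline library 5 on a log axis, 1 point per muscle gene with its exact 95% counting interval, and the median of 9.66 dashed. The slow-fibre genes span 5.25 to 11.4 and the fast-fibre genes 9.88 to 13.4, so the ranges overlap.

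Muscle genes outside the set could be tested against the mechanoreceptor libraries, although their lists were chosen with earlier results known. Of 92 further muscle genes, 69 passed the filter, 38 were called higher in the midline and 1 lower by edgeR's quasi-likelihood test at an adjusted p under 0.05, where 18.9% and 18.8% of all genes tested were. Their median log2 fold change was 3.12. A gene near 0 in mechanoreceptors passed the filter only if every midline library was above its cutoff. The counts called higher, here and in each list below, thus partly follow from the filter. They are not read against the share over all genes. The filter bears likewise on the adjusted p of single genes near 0 in mechanoreceptors, such as Klhl31 and Sln. Those values are given as a description. Without midline library 2, 27 of 71 were called higher and 10 lower, where 15.2% and 17.8% of all genes tested were. Leaving out mechanoreceptor library 2, 8 or 9 left 20, 25 and 23 called higher, and leaving out midline library 3 gave 60. Of the genes named next, Pygm, Trdn, Ldb3 and Tmem8c lost their call without any 1 of the mechanoreceptor libraries. Musk lost it without mechanoreceptor library 2 or 9, Casq1 without 8 or 9, and Sln without 9. Mef2c, Tpm3, Srl and Eno3 gained a call, higher in the midline, without midline library 3.

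Of the further sarcomere genes 21 of 27 tested were higher and none lower, and 16 of 28 were higher and none lower without midline library 2. Klhl31, a myofibril stability factor, was at 211.9, 6.89 and 94 CPM in midline libraries 2, 3 and 5, against 0.115, 0.473 and 0 CPM in mechanoreceptors, a log2 fold change of 8.91 ± 1.45 (SE, adjusted p = 0.00311 by edgeR). Myom1, the M-band protein myomesin, was higher by 5.38 ± 1.09 and Ldb3, a Z-disc protein, by 4.96 ± 1.31, the adjusted p being 0.00734 and 0.0198 by edgeR. Without midline library 2 these log2 fold changes were 3.34 and 2.04, and that of Klhl31 was 7.85. Flnc, filamin C, was at 267, 64.2 and 293.3 CPM in the midline and 2.25 to 4.94 CPM in mechanoreceptors, and so departed from the order of the muscle set. Tpm3, at 112.7 to 155.8 CPM in the midline and 91.7 to 108.9 CPM in mechanoreceptors, was not called at an adjusted p of 0.105. Csrp3 did not pass the filter and stood at 120.8, 0.889 and 14.1 CPM in the midline.

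Of the calcium coupling genes 5 of 10 tested were higher and none lower, and 3 were higher and 1 lower of 11 without midline library 2. Sln, sarcolipin, was at 86.9, 1.56 and 6.76 CPM in midline libraries, against 0, 0 and 0.127 CPM in mechanoreceptors, a log2 fold change of 9.10 ± 1.96 (adjusted p = 0.00907 by edgeR). Cacna1s, the muscle voltage sensor, was at 47.9, 2.89 and 10.8 CPM in the midline and 0, 0 and 0.254 CPM in mechanoreceptors. Both were several times lower in libraries 3 and 5 than in library 2. Casq1, of fast fibres, was higher by 4.81 ± 1.11 and Trdn, triadin, by 4.70 ± 1.35, and Trdn lost its call without midline library 2 (adjusted p = 0.146 by edgeR). The log2 fold changes of Sln, Casq1 and Trdn were then 6.16, 2.75 and 2.17. Srl and Ryr3 were not called, with log2 fold changes of 1.92 and 0.55. Membrane and endplate genes were higher in 5 of 10 tested and lower in none, but without midline library 2 they were higher in 2 and lower in 3 of 10. Lrp4, the agrin receptor of the endplate, which neural tissue also expresses, was at 308.5, 213.3 and 1365 CPM in the midline and 4.02 to 7.24 CPM in mechanoreceptors. Its highest level was in library 5, unlike that of the muscle set. Dmd, dystrophin, was at 343.5, 140.9 and 205.4 CPM in the midline and 26.4 to 40.7 CPM in mechanoreceptors. Musk, the endplate kinase, was higher by 3.33 ± 0.80, and by 1.96 without midline library 2, where it was not called. Sgcb and Dysf were not called with all libraries, and without midline library 2 both were lower in the midline, by log2 fold changes of -0.60 and -2.69.

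Energy genes were higher in 3 of 10 tested and lower in 1, and higher in 2 and lower in 2 of 10 without midline library 2. Ampd1, muscle AMP deaminase, was at 85.3, 3.11 and 6.92 CPM in the midline and 0, 0.355 and 0.254 CPM in mechanoreceptors. Pygm, muscle glycogen phosphorylase, was higher by 5.56 ± 1.45, and by 2.73 without midline library 2, where it lost its call, and Ckmt2, mitochondrial creatine kinase, had 0 counts in each mechanoreceptor library. Fabp3, a fatty acid binding protein, fell to 9.11, 4.89 and 5.66 CPM in the midline, against 18.5, 26.4 and 18.7 CPM in mechanoreceptors, a log2 fold change of -1.69 ± 0.36 (adjusted p = 0.00903 by edgeR). Eno3 and Pfkm were not called, with log2 fold changes of 2.75 and -0.62, and Pfkm was called lower without midline library 2. Of the progenitor and fusion genes 4 of 12 tested were higher and none lower, and 4 were higher and 4 lower without midline library 2. The fusion genes Tmem8c and Gm7325, known as myomaker and myomerger, had 0 counts in each mechanoreceptor library. Tmem8c was at 103.4, 1.56 and 8.96 CPM in the midline and Gm7325 at 38.2, 1.33 and 4.09 CPM. Pax7, of muscle progenitors and dorsal neural tube, was at 15.2, 2.89 and 2.04 CPM in the midline, and Pax3, of the same tissues, at 14.9, 14.2 and 48.4 CPM, with mechanoreceptors at 0 to 0.237 CPM and 0.230 to 1.42 CPM. Mef2a and Mef2c were not called, with log2 fold changes of -0.15 and 1.32.

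**Figure D4:**
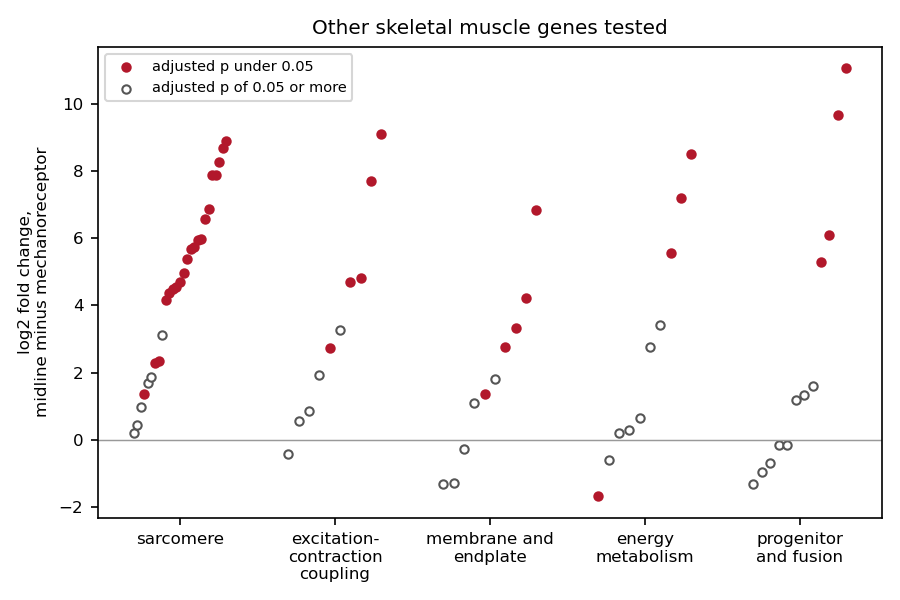
Log2 fold change, midline minus mechanoreceptor, of each of the 69 tested muscle genes outside the set, in 5 lists, filled where the adjusted p was under 0.05. The 21 filled sarcomere points all lie above 0, and 1 filled energy point lies below 0.

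Genes of other tissues also varied among the midline libraries. The connective tissue list of 10 genes summed to 7467, 652.2 and 1261 CPM in midline libraries 2, 3 and 5, against 218.9 to 307.7 CPM in mechanoreceptors. The keratinocyte list of 9 summed to 892.7, 38.4 and 47.6 CPM in the midline, against 26.2 to 31.8 CPM in mechanoreceptors, with Krt5 at 203.9, 2.44 and 2.36 CPM in the midline. The smooth muscle list of 8 summed to 542.9, 41.8 and 154.1 CPM in the midline and 14.48 to 19.05 CPM in mechanoreceptors, led by Acta2 at 374.7, 9.33 and 77.4 CPM. Library 2 led in each of these lists, as it did for the muscle set. Its keratinocyte level was 18.7-fold that of library 5 and its connective tissue level 5.92-fold, beside 10.1-fold for the 36 muscle genes. Cartilage, fat and tendon lists were 2.13, 5.14 and 2.13 times higher in library 2 than in library 5. The bone list of 6 was lower in library 2 than in library 5, by a ratio of 0.329, which Spp1 set, at 8.63, 94.9 and 399.3 CPM. Without Spp1, a choice made after its values were seen, the bone list summed to 130.4, 21.1 and 22.96 CPM in midline libraries 2, 3 and 5, against 5.44 to 7.12 CPM in mechanoreceptors, so library 2 led. The part of these tissues in the muscle result was not tested.

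**Figure D5:**
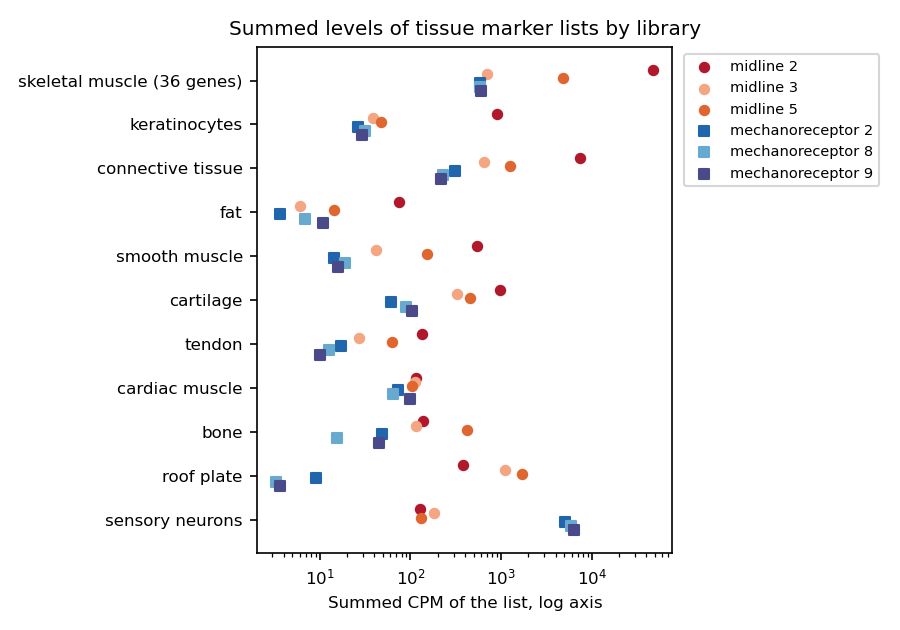
Summed CPM of the muscle set and of 10 tissue marker lists on a log axis, with circles for midline libraries and squares for mechanoreceptor libraries. Muscle spans 692.5 to 47950 CPM over the midline libraries, cardiac muscle 105.0 to 116.2 CPM.

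The cardiac list of 11 genes, which checks the label of skeletal muscle, summed to 116.2, 111.8 and 105 CPM in midline libraries 2, 3 and 5, against 64.8 to 98.5 CPM in mechanoreceptors. Most of that sum was Ryr2, which neurons express, at 66.3, 98.4 and 83.5 CPM in the midline. Without Ryr2, a choice made after its values were seen, the list summed to 49.9, 13.3 and 21.6 CPM in the midline, against 6.43, 9.11 and 14.4 CPM in mechanoreceptors. That is 3.74-fold more in library 2 than in library 3, beside 69.2-fold for the muscle set. Of 4 cardiac genes tested, Tnni3, cardiac troponin I, and Tbx20 were called higher in the midline, at 2.24, 4.67 and 5.98 CPM and at 5.59, 2.44 and 4.88 CPM. Of its genes, Myl7 and Nkx2-5 had 3 counts or fewer in each midline library. Myh6, the cardiac heavy chain, was at 36.6, 1.33 and 5.82 CPM in the midline, against 1.72, 4.97 and 7.12 CPM in mechanoreceptors. It made up most of the 49.9 CPM of library 2 without Ryr2, and so largely set the 3.74-fold ratio to library 3. Myh6 shares sequence with Myh7, and 22.6% of Myh7 windows occur in another gene.

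The genes nearest to the median profile of the 36 over the 6 libraries, by Euclidean distance of centred log2(CPM + 0.5) among 14033 others with at least 100 counts, began with 4 genes of the further muscle lists. Tmem8c was nearest at 0.42, then Synpo2l at 0.72, Sln at 0.75, Csrp3 at 0.90, Myot at 0.93, Tbx15 at 0.95, Klf14 at 0.97 and Capn6 at 0.98. Of the nearest 50, 19 stood in the further muscle lists, which hold 92 of all 22869 gene symbols. Their share of the 14033 genes searched was not counted. These lists do not hold every muscle gene, and genes outside them, such as Myot, were not sorted into muscle and other tissue. The nearest 50 also held genes of the other tissue lists. These were Fabp4 of fat, Ibsp of bone, Acta2 of smooth muscle, Thbs4 of tendon, Dsp of keratinocytes, and Dpt and Col1a1 of connective tissue. The profile was thus not particular to muscle. Capn6, the last of the 8, was at 747.3, 28.7 and 105.2 CPM in midline libraries 2, 3 and 5, against 2.53, 6.04 and 3.44 CPM in mechanoreceptors.

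The authors' deposited table of enriched pathways held muscle terms, whose ratio is a fold enrichment. It gave a 2.69-fold enrichment of dilated cardiomyopathy with 26 genes, an adjusted p of 0.000101 by the authors' deposited table, rank 8 of 36 pathways. Vascular smooth muscle contraction had 32 genes and 2.54-fold, and cardiac muscle contraction had 15 genes, 1.83-fold and an adjusted p of 0.165 in the authors' deposited table. Hypertrophic cardiomyopathy had 24 genes and 2.72-fold, and arrhythmogenic right ventricular cardiomyopathy had 23 genes and 2.92-fold. Cardiomyopathy terms can contain sarcomere genes shared by heart and skeletal muscle. Which genes stood behind these enrichments was not looked up here.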

How the data were processed

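RNA of 3 laser captured midline and 3 sorted mechanoreceptor libraries was sequenced on an Illumina HiSeq, per the labels. The authors deposited raw counts per transcript row, with their own log2 fold changes, p-values adjusted as a false discovery rate, and pathway tables with a ratio of fold enrichment, per the file headers. The submitters' processing notes name mm9 and edgeR, and the aligner and counter are not given in the sources used here. Here 1 row per gene symbol was kept, that with the highest summed count. edgeR 4.0.16 in R 4.3.3 was run with TMM normalization, filterByExpr, the quasi-likelihood test and Benjamini-Hochberg adjustment over all genes tested, at 0.05, with group as the only term. DESeq2 1.42.0 was an alternative. The edgeR fit was tested on simulated data. CPM uses TMM library sizes. Ratios of library counts carry exact 95% intervals and shares carry Wilson intervals, for counting error only. Levels between genes are per coding length of the kept transcript. Members and lists were chosen with earlier results of these data known. Further muscle genes were named by mean midline CPM, up to 4 called and 2 not called in each of 5 lists, and 1 gene that this rule names is not reported here. Tissue genes were named by mean midline CPM, up to 2 per list, with these exceptions. In the cardiac list Tnni3 and Tbx20 were also named for their call, and Myl7 and Nkx2-5 for their low counts. Tissue genes whose profile lay near that of the muscle set were named for that.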

Additional observations from a re-analysis of the deposited data

How the results depend on the processing

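No paired analysis was possible because the groups share only replicate number 2 and the labels give no link between those libraries. Under RLE size factors, no count filter, library sizes without muscle genes, counts summed over transcript rows and DESeq2, the genes called were 5701 to 6783 and the further muscle genes called higher were 38 to 56, 1 being lower throughout. Leaving out 1 library at a time gave 3755 to 6181 genes called, 20 to 60 further muscle genes called higher and 1 to 10 called lower, the lowest total being that without mechanoreceptor library 8. For the 36 muscle genes the median log2 fold change was then 4.39 to 7.78, their mean share of midline counts 0.307 to 2.93% and the mean Myh3 share 45.2 to 64.2%. Mef2a, not called at a log2 fold change of -0.15, ran from -0.29 to 0.036 when 1 library was left out, turning sign without mechanoreceptor library 2, and the cause was not tested. Counts per transcript kilobase and ratios with library sizes without muscle genes were added after the data were seen, as were the cardiac list without Ryr2 and the bone list without Spp1, and gave a Myh3 share of 52.0% and a median library 2 over library 5 ratio of 9.78. The 4 myogenic regulators had 9 counts or fewer each in midline library 3, which limits what its values show.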
